A study of Mus musculus with 45 samples.

Results

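The genes described here are 124 olfactory receptor genes on mouse chromosome 7 that lie on both sides of the beta globin genes. They are the genes of the deposited table whose name starts with Olfr and a number and whose start falls between 102 and 105.5 Mb in mm10, 124 of 24333 genes, and no expression or accessibility value was used to choose them. The study compared Ter119+ erythroblasts, red cell precursors sorted by the Ter119 surface protein, of mice labelled Stag2 WT or Stag2 KO. Both groups had received pIpC, the agent given to induce deletion, and were taken between 6 and 8 weeks after that treatment ended. Stag2 is part of cohesin, which encircles DNA and holds chromatin loops. The labels used here did not give the Cre line, the age or sex of the mice, or whether each library came from a separate animal, so the p-values below measure the spread between libraries. Each genotype had 3 libraries of single-nucleus ATAC-seq, an assay of open chromatin, prepared as 10x Genomics multiome. The measurement is the gene score, a deposited signal built from ATAC fragments in and around a gene. It is a measure of accessibility and not of RNA, and neighbouring genes can share fragments.

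Olfactory receptors are G protein-coupled receptors of the nose, and each olfactory neuron expresses 1 of them from 1 allele. Their genes sit in large clusters, have mostly a single coding exon, and are packed in heterochromatin in other tissues. The mouse beta globin genes are embedded in such a cluster. They are among the most active genes of erythroblasts and are driven by the locus control region, a group of enhancers between Hbb-y and the nearest olfactory receptor genes on that side. Sites bound by CTCF, the protein at which cohesin loops often end, flank the locus.

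Of the 124 genes, 72 lay on the side of Hbb-b2, the adult globin gene at the lower coordinates, and 52 lay on the side of Hbb-y, the embryonic globin gene next to the locus control region. The 5 globin genes spanned chr7:103812524-103853207. The nearest receptor gene was Olfr67 at 20.7 kb and the farthest lay 1515 kb away. The genes had a median length of 954 bp, 114 of them were shorter than 1200 bp, and all 124 were listed as protein_coding in RefSeq (GRCm38.p6).

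RefSeq held a window for 107 of the 124 genes, from 250 bases before to 50 bases after the annotated gene start (GRCm38.p6). This window is called the promoter below. At Olfr66 and Olfr68 the bases from that start open with atg, the letters of a start codon. With 114 of the 124 genes shorter than 1200 bp, the window may often surround the coding start and not the start of transcription. The promoters of 4 genes next to the globin genes follow because the results below turn on them: Olfr66 (chr7:103882192-103882491, minus strand) and Olfr67 (chr7:103791781-103792080, minus strand) are the nearest gene on each side, Olfr631 (chr7:103914812-103915111, plus strand) had the most negative KO minus WT value in all, Int and Late nuclei, and Olfr68 (chr7:103778294-103778593, minus strand) lies next to Olfr67 and was higher in KO. Capitals mark matches to 5 motifs searched on both strands, listed after the sequences.
Olfr66: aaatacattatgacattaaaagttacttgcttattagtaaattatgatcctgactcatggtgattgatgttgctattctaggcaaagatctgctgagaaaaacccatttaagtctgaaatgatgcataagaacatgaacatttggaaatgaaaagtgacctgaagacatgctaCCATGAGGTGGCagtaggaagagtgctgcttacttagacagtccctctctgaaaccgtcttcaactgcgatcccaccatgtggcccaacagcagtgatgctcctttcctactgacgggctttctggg
Olfr67: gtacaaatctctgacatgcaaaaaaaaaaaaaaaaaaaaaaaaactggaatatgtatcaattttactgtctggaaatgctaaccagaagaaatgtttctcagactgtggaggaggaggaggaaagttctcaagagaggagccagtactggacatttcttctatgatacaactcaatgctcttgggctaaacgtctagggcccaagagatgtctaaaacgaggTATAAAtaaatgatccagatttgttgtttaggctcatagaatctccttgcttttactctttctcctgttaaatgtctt
Olfr68: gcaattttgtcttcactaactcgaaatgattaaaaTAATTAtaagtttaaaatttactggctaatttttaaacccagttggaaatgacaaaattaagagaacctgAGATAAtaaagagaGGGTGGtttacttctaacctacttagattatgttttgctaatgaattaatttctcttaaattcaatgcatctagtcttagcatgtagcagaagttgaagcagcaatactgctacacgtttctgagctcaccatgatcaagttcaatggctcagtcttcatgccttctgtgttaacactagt
Olfr631: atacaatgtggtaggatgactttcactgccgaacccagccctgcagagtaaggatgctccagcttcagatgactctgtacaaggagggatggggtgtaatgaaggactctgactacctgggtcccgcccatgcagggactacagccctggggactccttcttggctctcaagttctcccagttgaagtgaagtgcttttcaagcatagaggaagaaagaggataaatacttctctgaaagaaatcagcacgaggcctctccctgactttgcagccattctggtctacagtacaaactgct
The motifs were the GATA motif AGATAA, the CACCC box CCACCC bound by Klf1-type factors, the core of the CTCF motif, the TATA box TATAAA and the homeodomain site TAATTA, and each was counted on its own whether or not it overlapped another. AGATAA occurred in 28.0% of the 107 promoters, against 27.9% of 841 promoters of other Olfr genes and 11.2% of all 32851 promoters. TATAAA occurred in 40.2% of them, 41.1% of the other Olfr promoters and 13.6% of all promoters. CCACCC occurred in 9.35%, 6.30% and 31.5%, and TAATTA in 14.02%, 19.1% and 5.29%. The median GC content was 37.3% in the 107 promoters, 35% in other Olfr promoters and 52.7% in all promoters. The CTCF-like core occurred in 1 of the 107 promoters, that of Olfr66, against 0.119% of other Olfr promoters (1 of 841) and 2.43% of all promoters. These matches are letters in a window and not measured binding, and the motifs were chosen with the accessibility results in view.

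The libraries held 4617 to 6990 nuclei and 46782673 to 66286151 fragments. Of the 24333 genes, 301 had a score of 0 in every library, and none of them was among the 124. The cell type label was checked on marker genes: the 7 erythroid markers summed to 1666 to 1808 in WT and 1462 to 1582 in KO, with every KO library below every WT library, and ran from Alas2 at 93.5 to 111 to Slc4a1, the red cell anion exchanger, at 412 to 465. The 4 B cell markers summed to 46.2 to 54.7 and ran from Ms4a1 at 1.26 to 2.74 to Cd79a at 34.5 to 38.1, and the 4 T cell markers summed to 50.3 to 60.9 and ran from Cd3g at 3.17 to 4.73 to Lck at 39.7 to 46.5. No marker of the 7 lists was at 0. Of the nuclear barcodes, 725 occurred in more than 1 library. The score of Stag2 was 64.3, 65.7 and 65.8 in WT replicates 1 to 3 and 61.1, 65.1 and 62.4 in KO, which overlapped (log2 fold change -0.054 ± 0.034 SE, limma adjusted p = 0.24); a score summed over a gene does not check the deletion of part of it. The authors' table assigned each nucleus to a class named Early, Int or Late, where Int is read as intermediate. Early held as few as 16 nuclei in a library and was not tested.

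The 124 genes were among the least accessible of the table, except for a few beside the globin genes. Scores below are library means rescaled to a sum of 1000000 over genes. The median of their mean score was 2.94, against 13.1 for all genes, which placed it at percentile 14.4. A nucleus rarely had any signal at them: the median gene had a score above 0 in 1.44% to 2.77% of the nuclei of a library. The lowest was Olfr646 at 0.397, followed by Olfr668 at 1.34 and Olfr33 at 1.38. Only 5 genes had a mean score of at least 10, and all 5 lay within 100 kb of the globin genes. The 4 highest held 42.9% of the summed score of all 124.

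Accessibility stood out near the globin genes and was flat beyond 100 kb. The 13 genes under 100 kb had a median score of 6.38, against 2.94 for the 35 genes at 100 to 500 kb, 2.74 for the 33 at 500 kb to 1 Mb and 2.84 for the 43 beyond 1 Mb. The ratio of the near to the far median was 2.24 over all libraries and 2.22 to 2.56 in single libraries. Divided by gene length, the 4 medians were 6.12, 3.02, 2.92 and 2.92 per kb. Across the 111 genes at 100 kb or more, Spearman's rho between distance and score was 0.014, a description across genes of the same libraries.

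**Figure D1:**
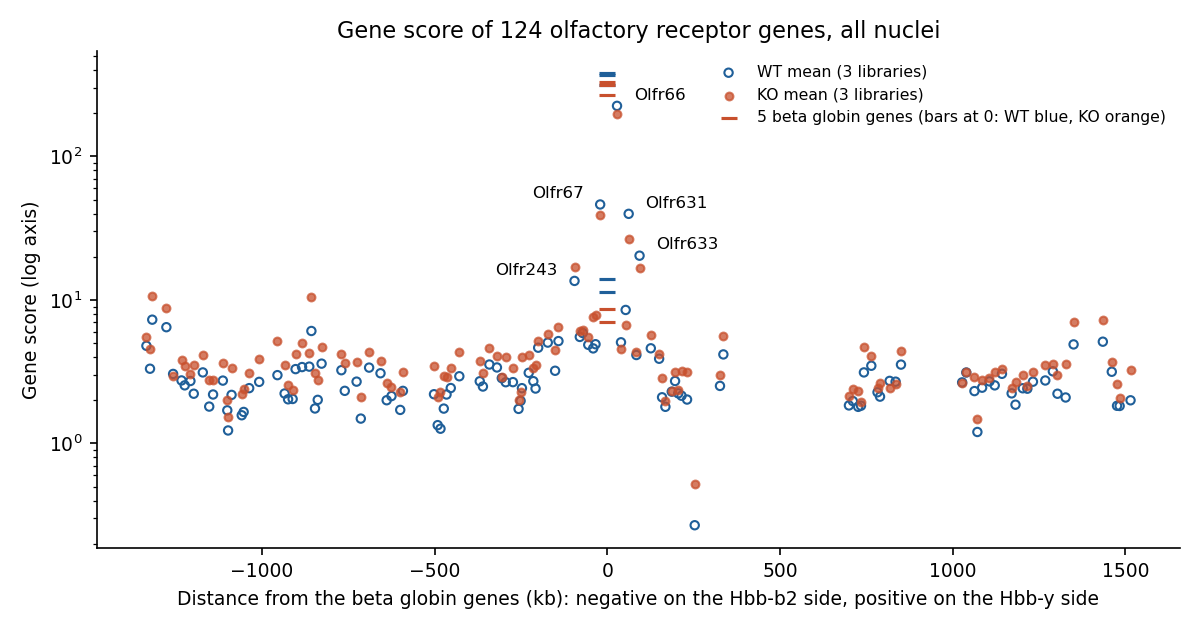
Mean gene score in all nuclei (log axis) of the 124 olfactory receptor genes against their distance from the beta globin genes in kb, with open blue circles for the mean of 3 WT libraries and filled orange circles for the mean of 3 KO libraries. Short bars at 0 are the 5 globin genes. Only genes within 100 kb rise above a score of 10 when averaged over all 6 libraries, with Olfr66 highest at 212.

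Olfr66 (chr7:103881306-103882241, minus strand, 28.1 kb from Hbb-y) was the most accessible of the 124. Its score was 242, 205 and 228 in WT replicates 1 to 3 and 186, 211 and 200 in KO replicates 1 to 3. A score above 0 was found in 82.3% to 86.0% of the nuclei of a library. The score also takes in fragments around the gene, and the part from outside the gene was not tested. Hbb-y on one side of it had 394, 340 and 383 in WT, and its neighbour Olfr64 on the other side had 4.87, 6.02 and 4.32. Per kb of gene, Olfr66 had a score of 227, Olfr633 had 19.7, Olfr243 had 16.05 and Olfr67 had 9.26. Olfr631 is the longest of these at 14850 bp, and its 2.23 per kb was below the far genes' medians although its score was the third highest. Whether the deposited score already allows for gene length is not given, so values per kb are not densities of accessibility.

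The comparison of KO with WT asks whether loss of Stag2 changes accessibility at these genes. Beside the globin genes Olfr631 on the Hbb-y side and Olfr67 on the Hbb-b2 side were lower in KO, and Olfr68, Olfr69 and Olfr243 on the Hbb-b2 side were higher. In all nuclei, Olfr631 (chr7:103915062-103929911, plus strand) had 43.8, 37.8 and 37.9 in WT and 26.1, 25.7 and 27.7 in KO. Every KO library was below every WT library, the log2 fold change was -0.57 ± 0.069 (SE, n = 3 libraries per genotype) and the limma adjusted p was 0.0041; the call held in all 19 alternative settings. Olfr67 (chr7:103787212-103791830, minus strand) had 49.6, 46.9 and 42.3 in WT and 38.1, 40.7 and 39.1 in KO. These groups did not overlap either, with a log2 fold change of -0.23 ± 0.062 and a limma adjusted p of 0.038, which 8 of 19 alternatives moved to between 0.0535 and 0.111, among them leaving out WT replicate 1 (-0.18), WT replicate 2 (-0.22), KO replicate 1 (-0.21), KO replicate 2 (-0.25) or KO replicate 3 (-0.23).

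The neighbours of Olfr67 went the other way. Olfr68, 34.2 kb from Hbb-b2, had 6.00, 4.65 and 4.09 in WT and 9.11, 7.26 and 7.16 in KO. Olfr69, 40.9 kb away, had 4.91, 5.01 and 3.86 in WT and 8.89, 6.87 and 7.19 in KO. In both genes all KO libraries lay above all WT libraries, with log2 fold changes of 0.59 ± 0.155 and 0.63 ± 0.137 and limma adjusted p of 0.0351 and 0.0215. Under quantile normalization, which forces all libraries to 1 distribution, they were 0.32 and 0.36, with limma adjusted p of 0.196 and 0.0603. The Olfr68 call was also lost when any library other than WT replicate 1 was left out (0.48 to 0.64), and the Olfr69 call on leaving out KO replicate 1 (0.53), WT replicate 1 (0.67) or WT replicate 3 (0.53). Olfr243, at 95.0 kb on the same side, had 13.4, 13.4 and 13.9 in WT and 16.6, 18.3 and 15.97 in KO (log2 fold change 0.30, limma adjusted p = 0.032). Its groups were apart, but the call was lost when any 1 library was left out (0.25 to 0.34) and without the nuclei of the 5% highest doublet scores (0.25, limma adjusted p = 0.0513). Under quantile normalization the difference was 0.019.

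The other near genes did not pass the test under the main scaling. Olfr66 had a log2 fold change of -0.18 ± 0.072 in all nuclei (limma adjusted p = 0.103), with groups that overlapped; it passed in 4 of 19 alternatives, without WT replicate 2 (-0.24, 0.0416), within 5000 to 10000 fragments (-0.20, 0.0382), with the filter on mean score (0.0221) and without genes at 0 in every library (0.0286). Olfr65 and Olfr633, both on the Hbb-y side, had groups that did not overlap, at -0.31 (limma adjusted p = 0.134) and -0.27 (0.053, and below the threshold in 7 of 19 alternatives). Olfr65 passed in 4 alternatives, quantile normalization (-0.58, limma adjusted p = 0.0234), cyclic loess (-0.59, 0.00326), median centring (-0.44, 0.0376) and the window of 55% to 65% of fragment ends in peaks (-0.49, 0.045), and Olfr64 passed under quantile normalization (-0.39, 0.0321) and cyclic loess (-0.39, 0.0169). Olfr64 had -0.13, Olfr632 had 0.060, Olfr629 had 0.069, Olfr628 had 0.12 and Olfr630 had 0.14. The median log2 fold change of the 6 near genes on the Hbb-y side was -0.22, and that of the 7 near genes on the Hbb-b2 side was 0.14. The latter is the value of Olfr630, which was -0.12 under quantile normalization. On that side this scaling also gave -0.20 at Olfr629, -0.27 at Olfr67, 0.019 at Olfr243, 0.32 at Olfr68 and 0.36 at Olfr69.

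**Figure D2:**
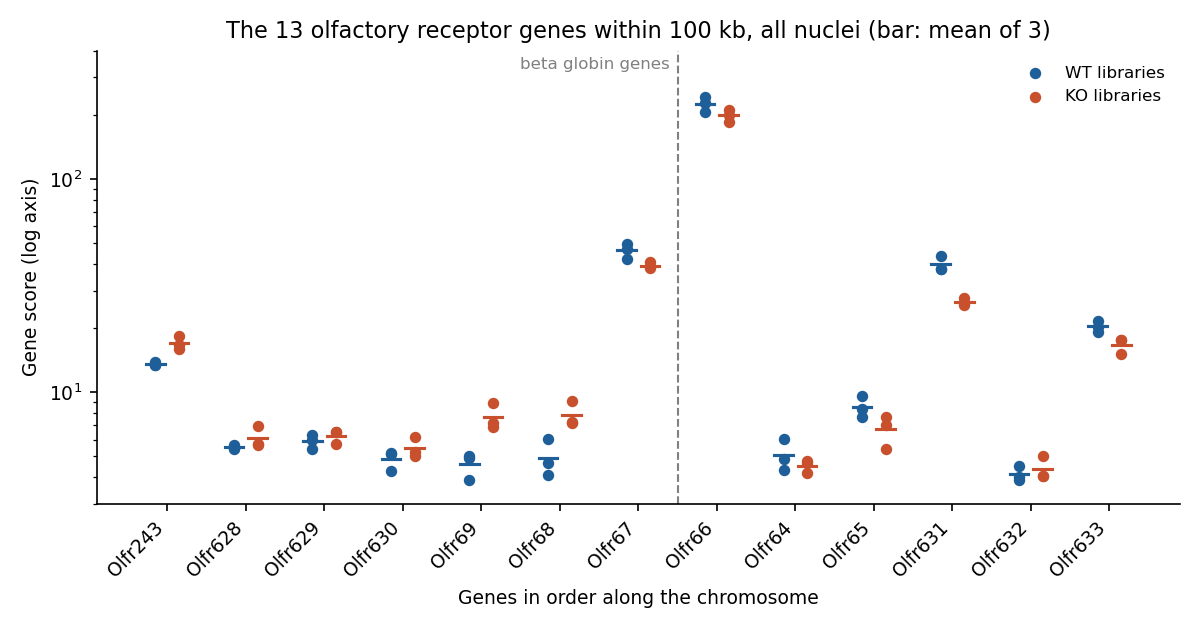
Gene score in all nuclei (log axis) of the 13 receptor genes within 100 kb of the globin genes, in chromosome order, with 1 point per library, a bar for the mean of 3, and a dashed line where the globin genes lie. WT libraries are blue and KO libraries are orange. At Olfr67, Olfr65, Olfr631 and Olfr633 every KO point is below every WT point, and at Olfr243, Olfr628, Olfr69 and Olfr68 every KO point is above.

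The globin genes between them were lower in KO, as was the summed score of the erythroid markers given above, and the part of the latter in these values was not tested. Hbb-bs, the main adult beta globin gene, had 402, 353 and 383 in WT and 284, 333 and 322 in KO (log2 fold change -0.28, limma adjusted p = 0.0381), and this call was lost when any 1 library other than WT replicate 2 was left out, with values of -0.21 to -0.32. In all nuclei 3 of the 5 globin genes passed the test, all lower, against 8.27% of all genes; Hbb-bh2 and the embryonic gene Hbb-bh1 had -0.62 and -0.61, both lost on leaving out KO replicate 1, KO replicate 2 or WT replicate 1 and Hbb-bh2 also without KO replicate 3, and Hbb-b2 and Hbb-y did not pass at -0.21 and -0.16. In Int nuclei 0 of the 5 passed in limma, with a median of -0.28, adjusted p of 0.0539 to 0.46 and 4 of 5 at an unadjusted p under 0.05. In Late nuclei all 5 passed, against 10.7% of all genes called lower, from -0.17 at Hbb-y to -0.72 at Hbb-bh1; the calls of Hbb-bs and Hbb-b2 held in all 19 alternatives and each of the other 3 was lost when some single libraries were left out, WT replicate 1, KO replicate 1 and KO replicate 2 among them.

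Away from the globin genes 33 of 111 receptor genes were called higher in KO and 0 lower. In all nuclei 36 of the 124 genes (29.0%) were called higher and 2 (1.61%) lower, against 20.3% and 8.27% of all genes. Their median log2 fold change was 0.25 and that of all genes was 0.14. At 56 genes every KO library was above every WT library and at 4 every KO library was below, or 45.2% and 3.23% of the 124, against 36.7% and 14.1% of all genes. The values furthest from 0 were those of Olfr575 and Olfr566. Olfr575, 857 kb from Hbb-b2, had 7.29, 5.84 and 5.10 in WT and 9.02, 11.7 and 10.9 in KO (log2 fold change 0.71 ± 0.153, limma adjusted p = 0.0206). Olfr566, 955 kb away, had 3.44, 3.05 and 2.49 in WT and 4.82, 5.30 and 5.36 in KO (0.63 ± 0.108, 0.0108). The groups were apart at both genes. Quantile normalization ended both calls (0.45 and 0.38, limma adjusted p of 0.137 and 0.0782), as did weighting nuclei by fragments (0.67 and 0.31); cyclic loess (0.43) and the replicate block (0.71, 0.0609) ended that of Olfr575, and the window of 5000 to 10000 fragments ended that of Olfr566 (0.44). The Olfr575 call was also lost on leaving out KO replicate 2 (0.64), KO replicate 3 (0.69) or WT replicate 3 (0.61).

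Other receptor genes were counted in the same fit, and no test compared the sets. Of 110 Olfr genes elsewhere on chromosome 7, 27 (24.5%) were called higher and 0 lower, with a median of 0.26. Of 876 Olfr genes on other chromosomes, 133 (15.2%) were called higher and 3 (0.342%) lower, with a median of 0.19. The 323 vomeronasal receptor genes, which encode pheromone receptors, had 51 (15.8%) higher and 1 (0.31%) lower, with a median of 0.16. The shares called higher in these last 2 sets were below the 20.3% of all genes. The 40 genes of other families in the same window had 10 (25%) higher and 4 (10%) lower, with a median of 0.26.

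The size of the family's difference and the balance of its calls moved with the scaling of the libraries: under quantile normalization the median of the 124 in all nuclei was 0.029, with 2 called higher and 6 lower, against 8.65% and 9.30% of all genes, while the median of all genes moved from 0.14 to -0.013. The share of fragment ends in peaks also moved with genotype, with library medians of 62.5%, 62.2% and 64.7% in WT and 57.4%, 59.1% and 59.9% in KO. Among nuclei with 55% to 65% of fragment ends in peaks, 12 of the 124 were called higher and 3 lower, against 8.88% and 6.36% of all genes in that window, with the 6 near genes of the Hbb-y side at a median of -0.31. The summed score of 6 granulocyte and monocyte markers was 49.1 to 53.2 in WT and 63.5 to 66.4 in KO, with S100a8 lowest at 3.73 to 5.95, and that of 4 stem and progenitor markers was 43.5 to 50.5 in WT and 53.2 to 61.4 in KO. The 4 megakaryocyte markers had the largest sum after the erythroid list, 171 to 199 in WT and 207 to 218 in KO, with Pf4 lowest at 1.86 to 3.92. Gp9, the highest of that list, went the other way, at 105 to 127 in WT and 96.0 to 104 in KO, with every KO library below every WT library. The B cell markers summed to 46.2 to 48.7 in WT and 50.4 to 54.7 in KO. In the sums of these 4 lists every KO library was above every WT library, while those of the T cell markers overlapped. The part of these markers in the receptor scores was not tested. Leaving out 1 library at a time gave 10 (without KO replicate 2) to 35 (without WT replicate 2) genes higher, with 12 without WT replicate 3, 14 without KO replicate 1, 16 without WT replicate 1 and 19 without KO replicate 3. The shares of all genes in those fits are not set beside these counts.

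The same comparison was made within the classes. In Int nuclei 3 genes were called higher and 1 lower, or 2.42% and 0.806%, against 6.35% and 3.59% of all genes. The median was 0.094 against 0.059. Median centring turned the first to -0.035, and leaving out 1 library gave -0.0064 (without WT replicate 3) to 0.19. The gene called lower was Olfr631, with 54.7, 47.1 and 44.2 in WT and 30.2, 33.7 and 33.8 in KO (log2 fold change -0.56, limma adjusted p = 0.0118), a call lost only within 5000 to 10000 fragments (-0.68, 0.0856). The genes called higher were Olfr69 at 0.72, Olfr575 at 0.61 and Olfr639 at 0.40, and none of the 3 was called when any 1 KO library was left out.

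At 55 genes of the 124 every Late KO library was above every WT library and at 5 below, 44.4% and 4.03%, against 42.0% and 14.9% of all genes. In Late nuclei 42 genes were called higher and 3 lower, or 33.9% and 2.42%, against 30.9% and 10.7% of all genes, with a median of 0.39 against 0.18; under quantile normalization 2 were higher and 6 lower, against 9.25% and 10.1% of all genes, and the median was 0.012. Leaving out 1 library gave 21 to 40 higher, with no share of all genes set beside these counts. Of the Olfr genes elsewhere on chromosome 7, 35.5% were called higher in Late nuclei, with a median of 0.47. Those on other chromosomes had 20.4% and 0.31, and the vomeronasal receptor genes had 24.8% and 0.32. The 3 lower genes of the 124 all lay within 100 kb of the globin genes, and they were also the 3 with the highest mean score. Across the 124 genes the Late value had a Pearson r of -0.36 and a Spearman rho of -0.13 with the mean score (Pearson on its log2). With distance these were 0.35 and 0.32. Both are descriptions across genes, and the parts of position and score level were not tested. Olfr631 had 38.6, 30.3 and 29.3 in WT and 22.0, 19.3 and 21.9 in KO (-0.60, limma adjusted p = 0.0119), Olfr67 had 48.2, 46.5 and 44.95 in WT and 35.9, 40.3 and 39.5 in KO (-0.26, 0.0135), and Olfr66 had 254, 224 and 235 in WT and 208, 212 and 195 in KO (-0.21, 0.0316). At all 3 the groups were apart. Of the 19 alternatives, 0 ended the Olfr631 call and 1 ended that of Olfr67, the window of 55% to 65% of fragment ends in peaks (-0.23, 0.0821). The Olfr66 call was lost in 9 of 19 alternatives, including quantile normalization (-0.15, 0.125) and leaving out any library other than WT replicate 2. Among the near genes higher in all nuclei, Olfr68 was not called in Late (0.43, limma adjusted p = 0.123). Olfr69 (0.48, 0.0455) lost its call in 12 of 19 alternatives and Olfr243 (0.29, 0.035) in 10 of 19. Under quantile normalization Olfr68 had 0.053, Olfr69 had 0.093 and Olfr243 had 0.017. Of the higher calls, 27 were also called in all nuclei, 75% of the 36 there and 64.3% of the 42 in Late; these 2 comparisons share nuclei.

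**Figure D3:**
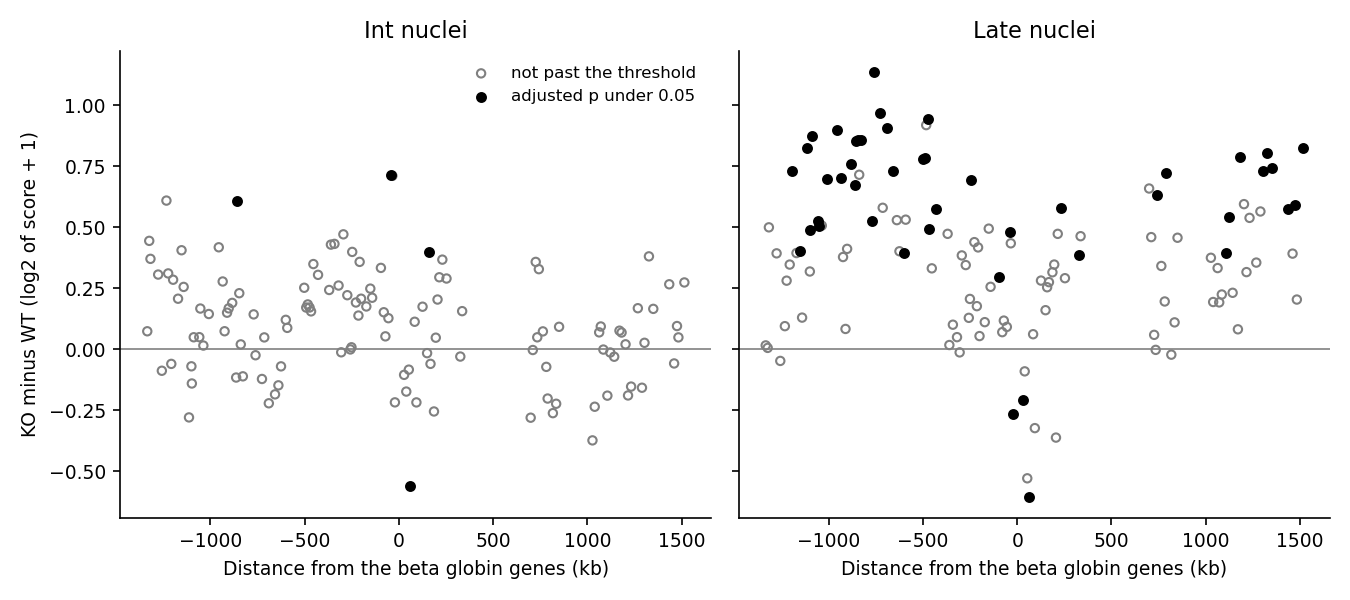
KO minus WT difference of log2(score + 1) for each of the 124 genes against distance from the globin genes in kb (negative on the Hbb-b2 side, positive on the Hbb-y side), in Int nuclei (left) and Late nuclei (right). Black points passed an adjusted p of 0.05, 4 in Int and 45 in Late; the lower calls lie within 100 kb of 0.

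A run of genes on the Hbb-b2 side stood high in Late KO nuclei. Of the 22 genes at 500 kb to 1 Mb on that side, from Olfr596 to Olfr566, all 22 had a positive log2 fold change in Late nuclei, 14 passed the test, against 30.9% of all genes called higher in Late nuclei, and the median was 0.71. The medians of the other far groups in Late nuclei were 0.30 to 0.40, and that of the Olfr genes elsewhere on chromosome 7 was 0.47. In Int nuclei the same 22 genes had a median of 0.080, with 14 positive and 1 called. Under quantile normalization their Late median was 0.31, with 20 positive and 2 called, while those of the other far groups were -0.072 to 0.019.

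Olfr583 (chr7:103051300-103052259, plus strand) had the highest Late value of the 124, with 1.33, 1.13 and 0.463 in WT and 2.71, 2.93 and 4.28 in KO (log2 fold change 1.14 ± 0.219, limma adjusted p = 0.012). Olfr584 had 1.53, 0.891 and 1.47 in WT and 3.41, 4.41 and 2.69 in KO (0.97, 0.011). Olfr586 (chr7:103121829-103122782, minus strand) had 2.17, 1.998 and 1.54 in WT and 4.77, 4.41 and 4.10 in KO (0.91, 0.00385). Olfr599, just nearer at 474 kb, had 0.825, 1.69 and 0.638 in WT and 2.82, 2.66 and 3.08 in KO (0.94, 0.0135). At each of these genes every KO library was above every WT library in Late nuclei, while in Int nuclei the groups overlapped. Among nuclei with 55% to 65% of fragment ends in peaks, Olfr583 had 0.63, Olfr586 had 0.71 and Olfr599 had 0.80, with limma adjusted p of 0.0637, 0.106 and 0.12. Quantile normalization also ended the calls of Olfr583 (0.75), Olfr584 (0.57) and Olfr599 (0.57), and within 5000 to 10000 fragments Olfr586 had 0.33 (0.173). The scale is low: log2 is taken of the score plus 1, which understates fold changes at these levels. Such scores also rest on few nuclei. In Late nuclei the median gene of the 124 had signal in 0.640% to 0.906% of the nuclei of a WT library. In KO this share was 1.08% to 1.17%.

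**Figure D4:**
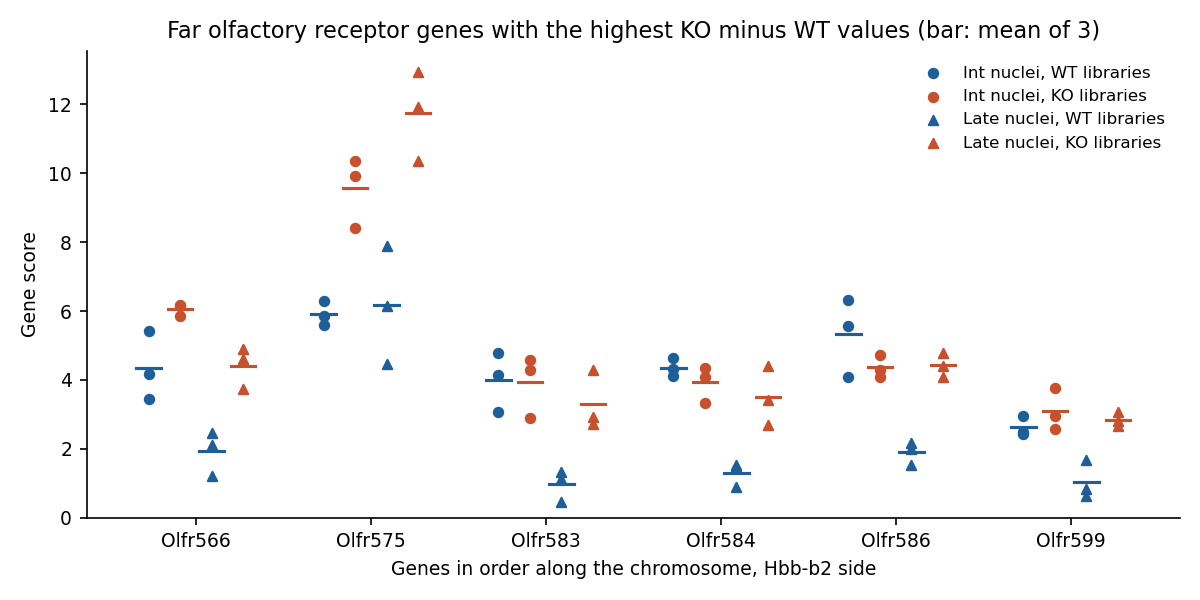
Gene score of 6 receptor genes on the Hbb-b2 side, with circles for Int nuclei and triangles for Late nuclei, blue for WT and orange for KO libraries, 1 point per library and a bar for the mean of 3. In Late nuclei every KO point lies above every WT point at all 6 genes; at Olfr583, Olfr584, Olfr586 and Olfr599 the Int points overlap.

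The change from Int to Late nuclei was measured within each library, as the difference of log2(score + 1). It fell at most of the receptor genes in both genotypes under the main scaling and turned under quantile normalization. In WT 101 of the 124 genes (81.5%) were lower in Late and 2 (1.61%) higher, against 56.9% and 19.6% of all genes, with a median of -0.74 against -0.35. In KO 73 (58.9%) were lower and 1 (0.806%) higher, against 52.8% and 18.3% of all genes, with a median of -0.45 against -0.30. With quantile normalization the medians were 0.18 and 0.17 and the counts 4 lower and 27 higher in WT and 2 lower and 29 higher in KO. All genes then had medians of 0.027 and 0.018, with 26.8% lower and 31.2% higher in WT and 22.9% and 26.3% in KO. Under the main scaling 95.5% of the Olfr genes elsewhere on chromosome 7, 87.0% of those on other chromosomes and 82.7% of the vomeronasal receptor genes were also called lower in WT, with medians of -0.88, -0.81 and -0.99, and 64.5%, 68.0% and 76.8% in KO; no test compared the sets. Of the lower calls, 67 genes were shared, 66.3% of the WT calls and 91.8% of the KO calls. In every library Int nuclei had more fragments than Late nuclei, with medians of 10121 to 14998 against 5693 to 6812, and a lower share of fragment ends in peaks. Within 55% to 65% of fragment ends in peaks 47 genes were called lower in WT and 16 in KO, against 36.2% and 31.6% of all genes in that window.

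The 2 genes called higher in WT lay beside the globin locus on the Hbb-y side. Of the 13 genes under 100 kb, 2 were called higher, 2 lower and 9 did not pass. Olfr633, 93.4 kb from Hbb-y, was higher in Late by 0.14, 0.31 and 0.81 in WT replicates 1 to 3 (mean 0.42 ± 0.125 SE, limma adjusted p = 0.0199), a call that held in all 18 alternatives. Its size moved, to 0.23 without WT replicate 3 and to 0.67 and 0.70 under quantile normalization and cyclic loess. Olfr66 was higher by 0.18, 0.21 and 0.07 (0.16 ± 0.057, 0.044), a call lost within 5000 to 10000 fragments (0.027, 0.758), within 55% to 65% of fragment ends in peaks (0.036, 0.559), without a variance trend (0.0745) and under quantile normalization, and turned to -0.021 by cyclic loess; leaving out WT replicate 1 (0.14), WT replicate 2 (0.13) or KO replicate 2, which shares the estimate of spread, also ended it. Of the 5 globin genes, 4 were called higher in WT and 3 in KO, with medians of 0.31 and 0.27, against 19.6% and 18.3% of all genes. Of the 6 near receptor genes on the Hbb-y side, 0 were called higher and 2 lower in KO, with a median of -0.039. Olfr67 had -0.11, -0.027 and 0.15 in WT replicates 1 to 3, centred near 0. Olfr631 fell by 0.56 on the log2 scale in WT (limma adjusted p = 0.00037) and by 0.61 in KO. The median by distance in WT was 0.022 for the near genes of the Hbb-y side and -0.21 for those of the Hbb-b2 side, and -0.60 to -1.01 in the 6 farther groups. Across all 124 genes Spearman's rho between distance and the WT change was -0.52, and -0.35 over the 111 at 100 kb or more; in KO it was -0.24 and -0.15, as descriptions across genes that share libraries.

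The most negative WT values lay far from the globin genes. Olfr683, 1290 kb away on the Hbb-y side, had -1.84, -1.76 and -1.14 (mean -1.58, limma adjusted p = 0.000301), and Olfr684 beside it had -1.52, -1.21 and -1.19 (-1.31, 4.98e-05). Olfr583 had -1.14, -1.44 and -1.48 in WT (-1.36, 0.000138) and -0.51, 0.0083 and -0.082 in KO (-0.19, 0.194). In KO the most negative were Olfr643 at -1.13, Olfr543 at -1.11 and Olfr544 at -1.06. Within 5000 to 10000 fragments Olfr544 had -0.11 (limma adjusted p = 0.836), Olfr543 had -0.55 (0.194) and Olfr684 in WT had -0.75 (0.157); Olfr543 also lost its call within 55% to 65% of fragment ends in peaks (-0.51), and Olfr643 (-0.42) and Olfr544 (-0.41) lost theirs under quantile normalization. That scaling kept the WT calls of Olfr683, Olfr684 and Olfr583 at -0.67, -0.36 and -0.41. In KO the gene called higher was Olfr557 at 0.52, which had 0.22, 0.45 and 0.88 in KO and -0.40, -1.05 and -0.32 in WT. The Olfr557 call was lost in 5 of 17 alternatives, among them leaving out KO replicate 3 (0.34), KO replicate 2 (0.55) or WT replicate 1 (0.52), and quantile normalization gave 1.11. Olfr78, a receptor also known from the carotid body and kidney, had -0.68 in WT and -0.34 in KO. The KO value (limma adjusted p = 0.0378) held its call and direction in 9 of 17 alternatives: quantile normalization gave 0.33 (0.035), and leaving out KO replicate 1 (-0.29), KO replicate 3 (-0.28) or WT replicate 2 (-0.34) ended the call.

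**Figure D5:**
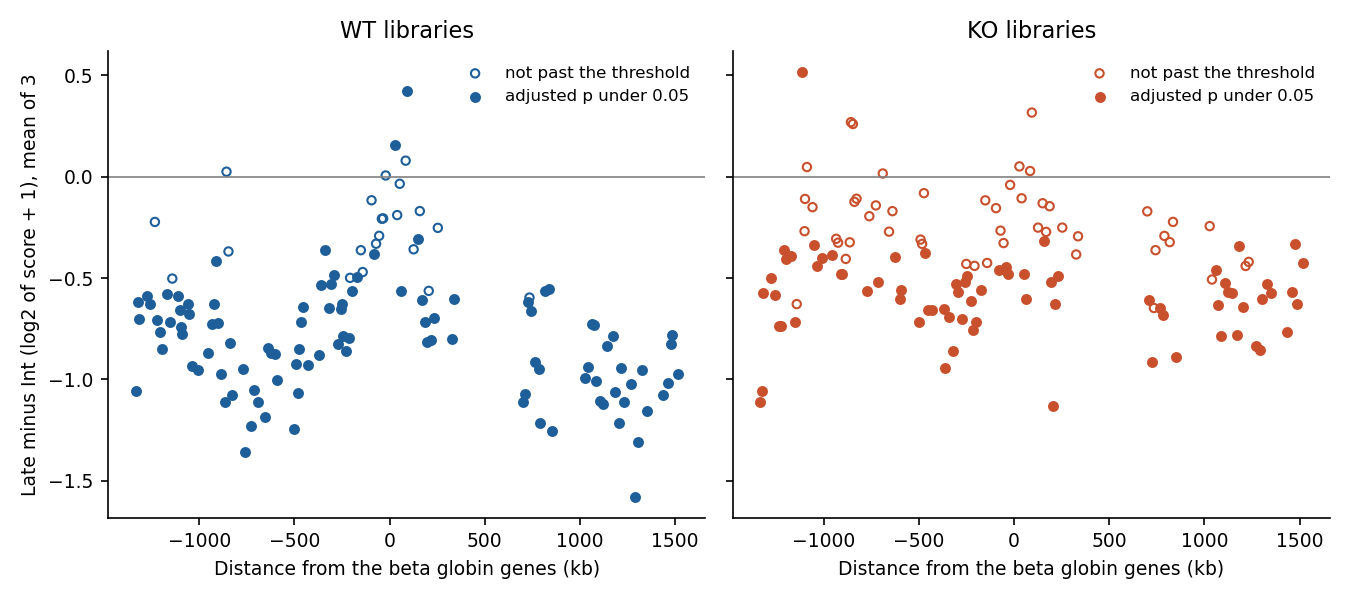
Late minus Int difference of log2(score + 1) for each of the 124 genes, averaged over the 3 WT libraries (left) and the 3 KO libraries (right), against distance from the globin genes in kb (negative on the Hbb-b2 side). Filled points passed an adjusted p of 0.05, 103 in WT and 74 in KO; in WT the 2 positive filled points, Olfr66 and Olfr633, lie within 100 kb on the Hbb-y side.

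The difference of this change between genotypes was then tested itself. No gene of the table passed (limma, 0 of 24333, or 0.0% in either direction), and 31 of the 124 had an unadjusted p under 0.05 with a less negative change in KO and 1 with a more negative one, among 20.9% of all genes with such a p. The lowest adjusted p among the 124 was 0.0669, at Olfr586, with a difference of 1.13. When the 301 genes at 0 in every library were left out of the fit, 10 of the 124 passed, all less negative in KO, against 3.75% of the genes tested. The median difference of the 124 was 0.27, and -0.017 under quantile normalization. Under the main scaling all genes had 0.054 and the Olfr genes elsewhere on chromosome 7 had 0.38. Olfr genes on other chromosomes had 0.26, as did the vomeronasal receptor genes.

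Genes that work with olfactory receptors were counted from lists. Of 14 genes of olfactory signal transduction and receptor transport, 4 (28.6%) were called higher in KO in all nuclei and 1 (7.14%) lower, against 20.3% and 8.27% of all genes, with a median of 0.19 against 0.14. The higher ones were Cngb1, a subunit of the olfactory cation channel, at 0.47, Ano2, a calcium-activated chloride channel, at 0.43, Slc24a4 at 0.40 and Reep1 at 0.35; Gnal, the olfactory G protein subunit, was lower at -0.21. Of 11 regulators of receptor choice, 2 (18.2%) were higher, Ebf2 at 0.63 and Ebf1 at 0.37, and 1 (9.09%) was lower, Lbr, the lamin B receptor, at -0.15. Both lists lay near the shares of all genes. Of 11 regulators of the beta globin genes, 0 were higher and 5 (45.5%) lower: Lmo2 at -0.26, Tal1 at -0.24, Klf1 at -0.18, Nfe2 at -0.18 and Gata1 at -0.17. In Int nuclei the 3 lists had 0, 0 and 1 genes called, and in Late nuclei 7 higher and 2 lower, 5 higher and 1 lower, and 0 higher and 7 lower, against 6.35% higher and 3.59% lower of all genes in Int and 30.9% and 10.7% in Late. The 3 markers of olfactory neurons, none at 0, summed to 86.0 to 91.7 in WT and 72.2 to 78.5 in KO, with the channel subunit Cnga2 lowest at 0.88 to 1.39 and Omp or Gnal highest at 37.1 to 47.2.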

How the data were processed

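Per the submitters' processing notes, Cell Ranger and mm10 were named for these libraries; how the authors weighted fragments in the gene score and assigned the classes is not given in the sources used here. The deposited gene score is a signal per gene and nucleus that the authors had scaled to the same total in every nucleus, and 25.2% of its values were above 0. Per the file headers, the authors' table of nuclei also gave the count of fragments, the nucleosome ratio, the doublet score and the enrichment score at gene starts. It listed each nucleus 2 times, and 1 copy was used. No nucleus of the deposited table was removed as a doublet; leaving out the 5% highest doublet scores was an alternative.

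The mean score of a library's nuclei, rescaled to a sum of 1000000, was the unit of replication. Log2(score + 1) was compared with limma 3.58.1 in R 4.3.3 (trend, two-sided) over all 24333 genes with no filter, and p-values were adjusted over all genes by Benjamini-Hochberg with a threshold of 0.05. Differences of Late and Int were taken within libraries. The fits were run on simulated data with independent noise for each gene, which does not test a shift common to a whole library. Alternatives were other pseudocounts, filters, scalings, nuclei and libraries. Fits without genes at 0 in every library were added after seeing the data. Distances are from the nearest gene edge to the span of the 5 globin genes. Genes are named if they were among the 5 nearest on each side, the globin genes, Stag2, the 3 highest or lowest by score, or past the threshold in a fit (the 5 highest and 5 lowest where there were more than 10); Olfr243, Olfr575 and others outside this in a given comparison were chosen after their values were seen. The genes and lists were chosen with earlier results of these data known. Python 3.11.15, pandas 2.3.3, scipy 1.17.1 and matplotlib 3.10.9 were used.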

Additional observations from a re-analysis of the deposited data

How the results depend on the processing

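For KO against WT in all nuclei (36 higher, 2 lower), the receptor genes called higher and lower were 2 and 6 with quantile normalization, 6 and 6 with cyclic loess, 17 and 4 with median centring, 8 and 4 among genes with a mean score of at least 5, 7 and 1 with nuclei weighted by fragments, 12 and 3 within 55% to 65% of fragment ends in peaks, and 22 and 3 within 5000 to 10000 fragments; without genes at 0 in every library 4 were lower. In Int nuclei (3 and 1) they were 1 and 4 with quantile normalization, with 3 lower under loess, 6 under median centring, and 2 with the score filter; the window of fragment ends gave 5 and 2 and the window of fragments 1 and 0. In Late nuclei (42 and 3) they were 2 and 6 with quantile normalization, 13 and 6 with loess, 6 and 5 with the score filter and 10 and 1 in the window of fragment ends; 27 were higher in the window of fragments, and 5 were lower both with weighted nuclei and without genes at 0. Leaving out 1 library gave 10 to 35 higher and 1 to 2 lower in all nuclei, 0 to 3 and 1 to 2 in Int, and 21 to 40 and 2 to 3 in Late. Counts with the score filter were taken only over the receptor genes that reached it. In all nuclei 20 receptor genes had a mean score above 5. The 8 and 4 called there are therefore not a fall from 36 and a rise from 2 in the same genes. Except where it is given above, the share of all genes called under the same setting is not set beside the counts. These limits also hold for the counts in the next paragraphs. The counts show how the calls moved and not a change particular to these genes.

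For Late against Int in WT (2 higher, 101 lower), quantile normalization gave 27 and 4, loess 23 and 9, the score filter 12 lower, the window of fragments 1 and 58, the window of fragment ends 1 and 47, and no variance trend 1 higher. In KO (1 higher, 73 lower) these were 29 and 2, 22 and 5, 13 lower, 0 and 33, 16 lower and 0 higher; median centring gave 5 and 37, and pseudocount 0.1, weighted nuclei and the fit without genes at 0 each gave 2 higher. Leaving out 1 library gave 1 to 2 higher and 83 to 105 lower in WT, and 0 to 3 and 45 to 73 in KO. For the difference between genotypes (0 and 0), loess gave 2 higher and 1 lower, the fit without genes at 0 gave 10 higher, and every fit without 1 library gave 0.

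Medians of the 124 genes changed sign in Int nuclei with median centring (-0.035) and without WT replicate 3 (-0.0064, in a range of -0.0064 to 0.19 without 1 library). They also did so in Late against Int with quantile normalization (0.18 in WT, 0.17 in KO) and loess (0.066 and 0.12). For the difference between genotypes the median turned with quantile normalization (-0.017). With the score filter this difference had a median of -0.040, taken only over those of the 124 that reached the filter. The near to far ratio of 2.24 was 2.09 per kb of gene. 

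The labels did not say whether replicate numbers pair the libraries. Deviations from the genotype mean correlated at -0.12, -0.27 and 0.21 between same-numbered libraries and at -0.33 to 0.42 between the others. With 3 libraries per genotype these values cannot show whether libraries shared a litter or day. With the replicate number as a block, 19 were higher and 1 lower in all nuclei, 0 higher in Int and 36 in Late.

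Named genes kept their direction in 1190 of 1222 alternatives, but some of these could not turn a value. Dropping the variance trend, filtering genes or adding the replicate block leaves the log2 fold change as it is. Leaving out a library of the other genotype does the same for a value of Late against Int. Many of the genes were also named because they had passed the threshold. In all nuclei Olfr630 turned with quantile normalization (-0.12), loess (-0.12) and the window of fragments (-0.14), Olfr629 with quantile normalization (-0.20), loess (-0.20), median centring (-0.059) and the window of fragment ends (-0.053), Olfr64 with the window of fragments (0.0056), and Olfr632 with quantile normalization (-0.19), loess (-0.19), median centring (-0.061), weighted nuclei (-0.10), the window of fragment ends (-0.00272) and without KO replicate 3 (-0.024, in a range of -0.024 to 0.11 without 1 library). In Late nuclei Olfr648 turned with quantile normalization (-0.016) and the window of fragments (-0.023). For Late against Int in WT, quantile normalization and loess turned Olfr628 (0.38, 0.40), Olfr608 (0.53, 0.50) and Olfr638 (0.58, 0.55, and 0.23 in the window of fragment ends), and loess turned Olfr66 (-0.021). In KO they turned Olfr676 (0.33, 0.26), Olfr78 (0.33, 0.25), Olfr690 (0.34, 0.27) and Olfr639 (0.35, 0.29). The cause was not tested.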

Other observations

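Early nuclei numbered 102, 235 and 20 in WT replicates 1 to 3 and 310, 25 and 16 in KO replicates 1 to 3, too few in 3 libraries for a comparison. Their scores at Olfr66 were 116, 99.2 and 143 in WT and 87.4, 98.7 and 99.7 in KO. Olfr67 had 58.3, 46.4 and 59.6 in WT and 43.1, 37.7 and 47.9 in KO, and Olfr631 had 34.4, 31.7 and 48.0 in WT and 23.7, 18.7 and 23.5 in KO. Hbb-bs had 106, 93.6 and 124 in WT and 80.6, 71.4 and 91.6 in KO. The groups overlapped at Olfr66 and Olfr67 and were apart at Olfr631 and Hbb-bs, in values with no test.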
